A study of Mus musculus with 10 samples.

Results

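The vitamin D receptor, the nuclear receptors that pair with it, the enzymes that make and break down its ligand, and the coregulators it recruits were followed in cultured mouse TH2 cells, a helper T cell type known for its part in allergy and in defence against worms. The 9 genes were chosen by name: Vdr, Rxra, Rxrb, Cyp27b1, Cyp24a1, Ncoa2, Ncoa3, Ncor1 and Snw1. All 9 were found among the 49671 Ensembl gene IDs of the count table. RNA was sequenced from wild-type C57BL/6 cells, which had been isolated as naive CD4+ T cells, polarised towards TH2 and collected at day 5 of culture. The control group comprised 3 libraries from mice kept on a regular diet holding 400 IU of vitamin D3 per kg. The deficient group comprised 7 libraries from the second generation of mice bred and reared without ultraviolet light on a diet free of vitamin D metabolites. Diet was therefore a condition of the donor mice, not of the culture. The age of the mice is not given in the sources used here. Whether each library stands for its own mouse is not stated, so every p-value here reflects variation among these libraries, which could be technical.

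Vdr encodes a transcription factor of the nuclear receptor family that is switched on by calcitriol, the hormonal form of vitamin D. It binds DNA together with a retinoid X receptor, commonly at paired hexamers with a short spacer, and exchanges corepressors such as Ncor1 for coactivators such as the Ncoa proteins when calcitriol is bound. Cyp27b1 makes calcitriol from its circulating precursor and Cyp24a1 degrades it, and Cyp24a1 is a classical target of the receptor. T cells carry little receptor at rest and raise it after activation, and calcitriol is known to restrain several of their cytokines.

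Libraries held 5800698 to 13433276 counts, and the 3 control libraries were the shallowest (exact two-sided permutation over 120 splits, p = 0.00833, the lowest value possible). Batch 1 held 2 control and 5 deficient libraries, and batch 2 held 1 control and 2 deficient libraries. Markers of TH2 cells were present in every library, with a summed level of 1259 to 1327 CPM (counts scaled to a common library total) over 8 genes in the control libraries and 829 to 1011 CPM in the deficient ones. Of these 8 genes 5 were lower, Cd3e, Cd3g, Cd4, Gata3 and Ccr4, and 2 cytokines were higher, Il5 by 0.84 and Il13 by 1.21 on the log2 scale (edgeR adjusted p = 0.0302 and 0.000824), while Il4 did not pass. The share passing was 87.5%, against 58% of all 13699 genes tested, of which 28.6% were lower and 29.4% higher. Cd4, at 723 and 335 CPM on average, made up the largest share of the sum. Markers of other cell types also differed. The sum over 8 CD8 T and natural killer cell markers was 16.4 to 34.8 CPM in control libraries, 71.8 to 95.2 CPM in deficient libraries 1 to 4 and 205 to 262 CPM in deficient libraries 5 to 7 (two-sided exact permutation p = 0.0167 between diets). Cd8a, Cd8b1, Klrd1, Klrk1 and Prf1 passed as higher (edgeR) and 3 did not pass. The share passing was 62.5%, against 58% of all genes tested. Cd8b1 was the largest part, at 9.83 and 58.4 CPM on average. The natural killer genes Ncr1 (1.06 and 0.583 CPM on average) and Klrb1c (0.488 and 0.870 CPM) did not pass. The sum over 7 B cell markers was 15.9 to 104 CPM in control libraries, 55.9 to 82.8 CPM in deficient libraries 1 to 4 and 281 to 317 CPM in deficient libraries 5 to 7 (exact permutation p = 0.175 between diets). Cd79a and Ighm passed as higher (edgeR) and 5 did not pass, a share of 28.6% against 58% of all genes tested. Ebf1 averaged 2.76 CPM in control and 1.38 CPM in deficient libraries, and Ms4a1 9.78 and 9.98 CPM. Over 8 macrophage and monocyte markers the sum was 15.9 to 18.0 CPM against 5.53 to 8.50 CPM, with the defining genes Lyz2, Csf1r, Cd14, Fcgr1 and Itgam under 1 CPM in every library and Cd68 forming most of the sum. Over 7 dendritic cell markers it was 183 to 212 CPM against 68.6 to 107 CPM, with Xcr1, Siglech and Clec9a under 1 CPM in every library. Ccr7, which T cells also express, formed most of that sum (191 and 78.9 CPM on average), whereas Zbtb46 rose by 1.25 (edgeR adjusted p = 4.81e-06). Deficient libraries 5 to 7, of which 5 belongs to batch 1 and the others to batch 2, thus stood apart from deficient libraries 1 to 4. Among the control libraries, library 3, of batch 2, also had the highest sums. Its B cell sum was 104 CPM, against 18.8 and 15.9 CPM in control libraries 1 and 2. Its CD8 T and natural killer sum was 34.8 CPM, against 16.4 and 19.2 CPM. Deficient libraries 1 and 3 held 657 to 733 CPM of Xist, the RNA of the silenced X chromosome, against at most 0.345 CPM in the other 8 libraries. Libraries with Xist at this level thus occurred in the deficient group only. In a fit without deficient libraries 1 and 3, chosen after seeing the data, Vdr differed by -1.91 and Ncoa2 by -0.81. Ncoa3 differed by -1.38, Ncor1 by -0.66 and Rxrb by -0.21, and all of these passed (edgeR adjusted p of at most 0.0395). Rxra and Snw1 did not pass in it. Because libraries 5 to 7 stood apart, results are also given without them where their call or size changes.

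The start regions of the receptor, of 1 of its partners and of the calcitriol-making enzyme are shown because they stand for 3 roles, the receptor, its partner and the maker of its ligand. RefSeq promoter windows of 300 bases (250 before and 50 after the annotated start, GRCm38.p6) were matched by symbol for 5 of the 9 genes, namely Vdr, Rxra, Rxrb, Cyp27b1 and Ncor1. Cyp24a1, Ncoa2, Ncoa3 and Snw1 were not matched. Capitals mark the GC box GGGCGG, or its reverse complement, and the TATA-like hexamer TATATA. The windows are chr15:97908247-97908546 on the minus strand for Vdr, chr2:27676951-27677250 on the plus strand for Rxra and chr10:127047996-127048295 on the plus strand for Cyp27b1.
Vdr: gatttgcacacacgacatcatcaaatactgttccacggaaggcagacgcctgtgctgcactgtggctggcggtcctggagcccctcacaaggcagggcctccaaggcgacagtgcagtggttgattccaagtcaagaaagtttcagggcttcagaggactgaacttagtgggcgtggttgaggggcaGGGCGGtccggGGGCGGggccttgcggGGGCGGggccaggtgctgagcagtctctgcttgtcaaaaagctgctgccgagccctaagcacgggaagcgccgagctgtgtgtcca
Rxra: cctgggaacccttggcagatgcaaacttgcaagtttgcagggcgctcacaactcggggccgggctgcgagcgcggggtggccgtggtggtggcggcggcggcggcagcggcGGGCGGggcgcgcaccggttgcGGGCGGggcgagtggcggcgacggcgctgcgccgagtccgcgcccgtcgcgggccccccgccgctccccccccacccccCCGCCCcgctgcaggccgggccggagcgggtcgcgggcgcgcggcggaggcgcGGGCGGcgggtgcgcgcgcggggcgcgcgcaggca
Cyp27b1: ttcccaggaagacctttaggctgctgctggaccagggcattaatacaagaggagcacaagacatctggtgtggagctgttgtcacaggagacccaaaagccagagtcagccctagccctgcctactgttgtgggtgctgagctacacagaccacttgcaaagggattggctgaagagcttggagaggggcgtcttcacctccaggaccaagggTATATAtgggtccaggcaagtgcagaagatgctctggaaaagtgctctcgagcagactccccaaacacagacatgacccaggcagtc
The Vdr window held 3 GC boxes over both strands and had a GC content of 61.3%. That of Rxra held 4 GC boxes with a GC content of 83.0%, and a second Rxra window at chr2:27709042-27709341 held 0. The Cyp27b1 window held 0 GC boxes and 1 TATATA. Of all 32851 mouse promoter windows of this length, 35.7% held a GC box, 10.7% held at least 3, 5.49% held at least 4 and 5.67% held TATATA. The 2 windows of Rxrb held 2 and 4 GC boxes, and the 2 windows of Ncor1 held 0 and 2. Both strands were also searched for the direct repeat of AGGTCA with a spacer of any 3 bases, a form to which the receptor pair binds, and for its degenerate form. None of the 8 windows of the 5 genes held either, against 0.00609% and 0.0396% of all windows, so these letters are rare in windows of this size.

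Vdr transcripts were lower in every deficient library than in any control library. Vdr (ENSMUSG00000022479) lies at chr15:97854425-97910630 on the minus strand of GRCm38, and its exons overlap no other annotated gene. Control libraries 1 to 3 had 9.83, 11.1 and 10.8 CPM, from 57, 69 and 70 counts. Deficient libraries 1 to 7 had 6.41, 3.79, 4.69, 4.61, 2.40, 1.71 and 2.46 CPM, from 83, 50, 33, 59, 30, 23 and 21 counts. The groups did not overlap, and libraries 5 to 7 were the lowest. The mean was 10.6 ± 0.657 CPM (SD, n = 3) in control and 3.73 ± 1.65 CPM (SD, n = 7) in deficient libraries, a 2.84-fold lower level. Vdr fell by 1.68 on the log2 scale (SE 0.277, 95% interval -2.28 to -1.08), and the adjusted p was 0.000156 (edgeR quasi-likelihood test, Benjamini-Hochberg over 13699 genes). Without deficient libraries 5 to 7 the log2 difference was -1.18 (edgeR adjusted p = 9.28e-05), and in batch 1 alone it was -1.34 (edgeR adjusted p = 0.00254). In batch 2, where 1 control library stands against 2 deficient ones, the value was -2.47, given with no test. The difference of the diet effect between batches was -1.12 (SE 0.546). It rests on 1 control library in batch 2, so whether the batches differ in this effect cannot be told. The summed CD8 T, natural killer and B cell markers were highest in deficient libraries 5 to 7, where Vdr was lowest, and their part in its level was not tested. In bulk RNA, fewer cells of a type and less RNA per cell cannot be told apart.

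Diet differences were widespread in these libraries, which sets the background for each gene here. Of the 13699 genes tested, 58% passed at an adjusted p below 0.05 (edgeR), 29.4% higher and 28.6% lower in the deficient group. Of the 9 genes, 7 had enough counts to be tested, 5 passed as lower (Vdr, Rxrb, Ncoa2, Ncoa3 and Ncor1), 0 as higher, and Rxra and Snw1 did not pass. Without deficient libraries 5 to 7, a fit chosen after seeing the data, 4 of these passed as lower and 1 (Rxra) as higher. Rxrb and Snw1 did not pass in it. In 4 of the 7 (Vdr, Ncoa2, Ncoa3 and Ncor1) all deficient libraries lay below all control libraries, against 21.4% of the genes tested, and none had all deficient libraries above all control libraries, against 29.4%. The median log2 difference was -0.64 over the 7 and 0.02 over all genes tested. For batch, 0% of genes passed (edgeR, 0 of 13699, with 1038 at an unadjusted p below 0.05). For the product of diet and batch 0% passed as well (edgeR, with 565 at an unadjusted p below 0.05).

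**Figure D1:**
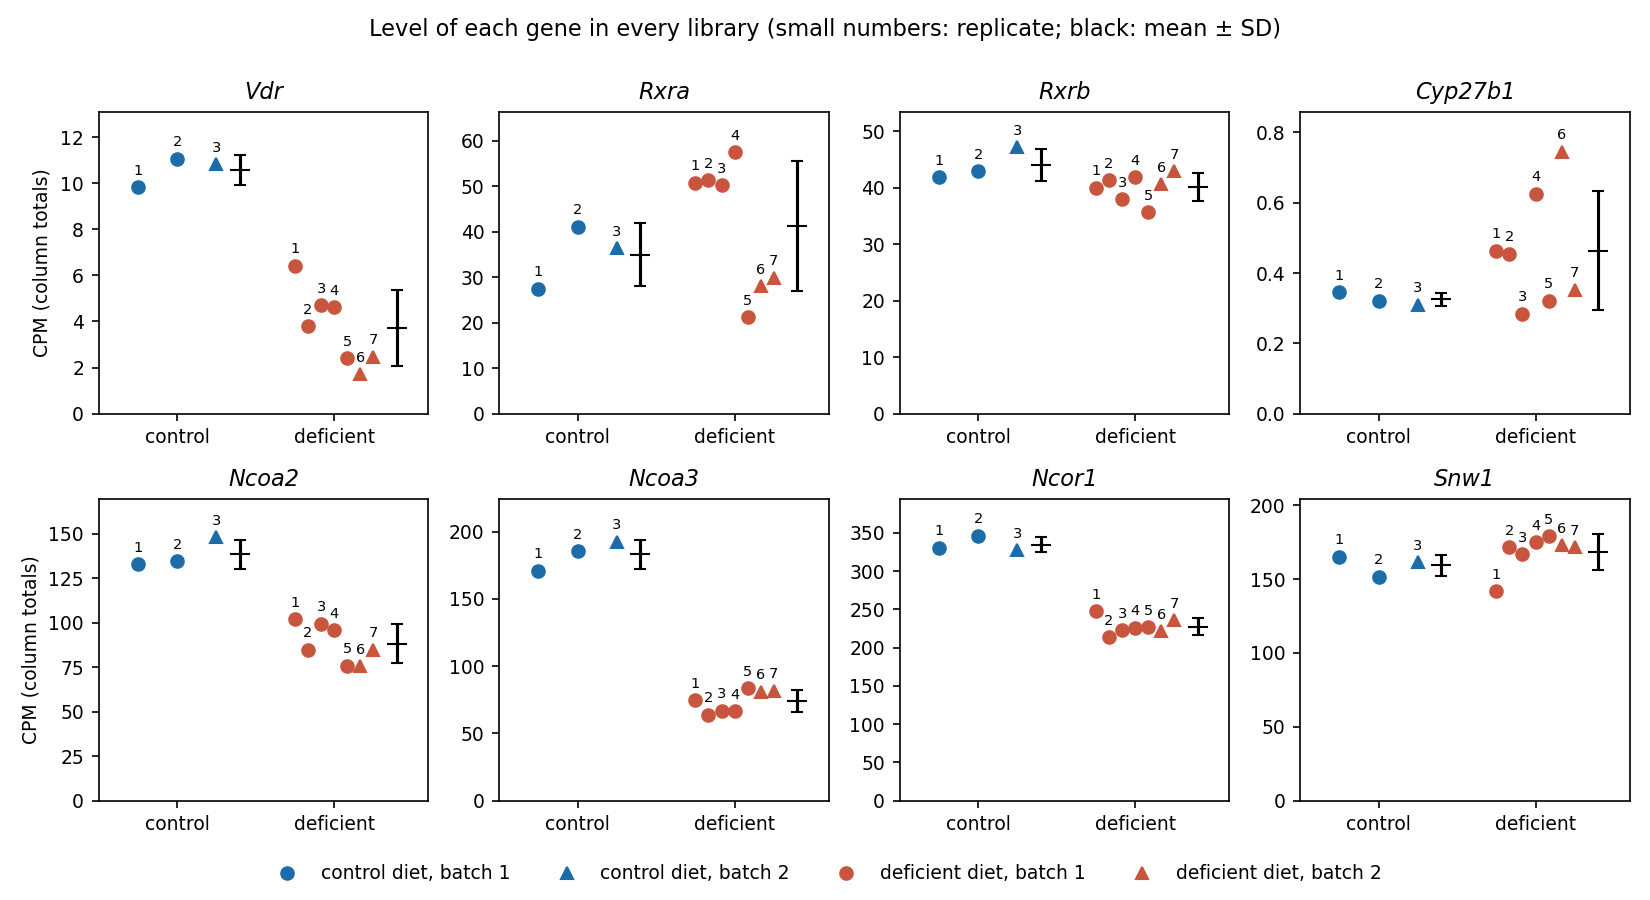
CPM (vertical axis, from 0) of 8 of the 9 genes in the control and deficient libraries, with 1 point per library, numbered by replicate, batch shown by the marker, and the mean ± SD in black. Vdr, Ncoa2, Ncoa3 and Ncor1 show no overlap between diets, and Rxra splits the deficient libraries into 1 to 4 and 5 to 7. Cyp24a1 is not drawn because it had 0 counts in every library.

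The plot of CPM by library shows overlapping diets for both partner receptors. Rxra (ENSMUSG00000015846, chr2:27676440-27762957, plus strand) encodes the retinoid X receptor alpha, which also serves other nuclear receptors as a partner. It had 27.4, 41 and 36.4 CPM in control libraries 1 to 3 and 50.7, 51.2, 50.2, 57.5, 21.2, 28.0 and 29.9 CPM in deficient libraries 1 to 7. Deficient libraries 1 to 4 lay above every control library, whereas libraries 5 to 7 lay within or below the control range. The group means were 34.9 ± 6.93 CPM (SD, n = 3) and 41.2 ± 14.4 CPM (SD, n = 7), and the log2 difference of 0.09 (SE 0.326, 95% interval -0.66 to 0.85) did not pass (edgeR adjusted p = 0.826). Without deficient libraries 5 to 7 Rxra rose by 0.52 (edgeR adjusted p = 0.00103). These libraries were set apart after the data were seen and hold the lowest deficient Rxra values, so this p-value is not a fair test. In batch 1 alone it was 0.34 (edgeR adjusted p = 0.556). In batch 2, where 1 control library stands against 2 deficient ones, the value was -0.39, given with no test. The difference was above 0 in every fit that left out deficient libraries only, and below 0 without control library 1 (-0.12, edgeR adjusted p = 0.814). The sums of CD8 T, natural killer and B cell markers were highest in deficient libraries 5 to 7, and their part was not tested.

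Rxrb (ENSMUSG00000039656, chr17:34031812-34038399, plus strand), the retinoid X receptor beta, varied little. It had 41.9, 43.0 and 47.2 CPM in control libraries and 35.7 to 42.9 CPM, with a median of 40.6 CPM, in deficient libraries. The groups touched, with 6 of 7 deficient libraries below the lowest control library. The means were 44.0 ± 2.81 CPM (SD, n = 3) and 40.1 ± 2.48 CPM (SD, n = 7), and Rxrb fell by 0.22 on the log2 scale (SE 0.0739, 95% interval -0.37 to -0.06, edgeR adjusted p = 0.0209). This call was lost in 8 of 22 alternative settings, among them scaling by column totals (-0.13, edgeR adjusted p = 0.162), each batch alone and the removal of any 1 control library.

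Set against the receptor per kilobase of annotated exon, the partners were more abundant in both diets. Rxra stood at 3.40 ± 0.480 times the Vdr level in control libraries (SD, n = 3) and at 12.1 ± 2.97 times in deficient libraries (SD, n = 7), with 8.18 as the lowest deficient value and 3.84 as the highest control value. Rxrb stood at 5.93 ± 0.356 and 18.3 ± 8.76 times the Vdr level. Both ratios were higher in every deficient library than in any control library. The ratio of Rxra to Rxrb was 0.476, 0.695 and 0.560 in control libraries, 0.902 to 0.999 in deficient libraries 1 to 4 and 0.432 to 0.507 in deficient libraries 5 to 7. These ratios describe the counts and carry no test.

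**Figure D2:**
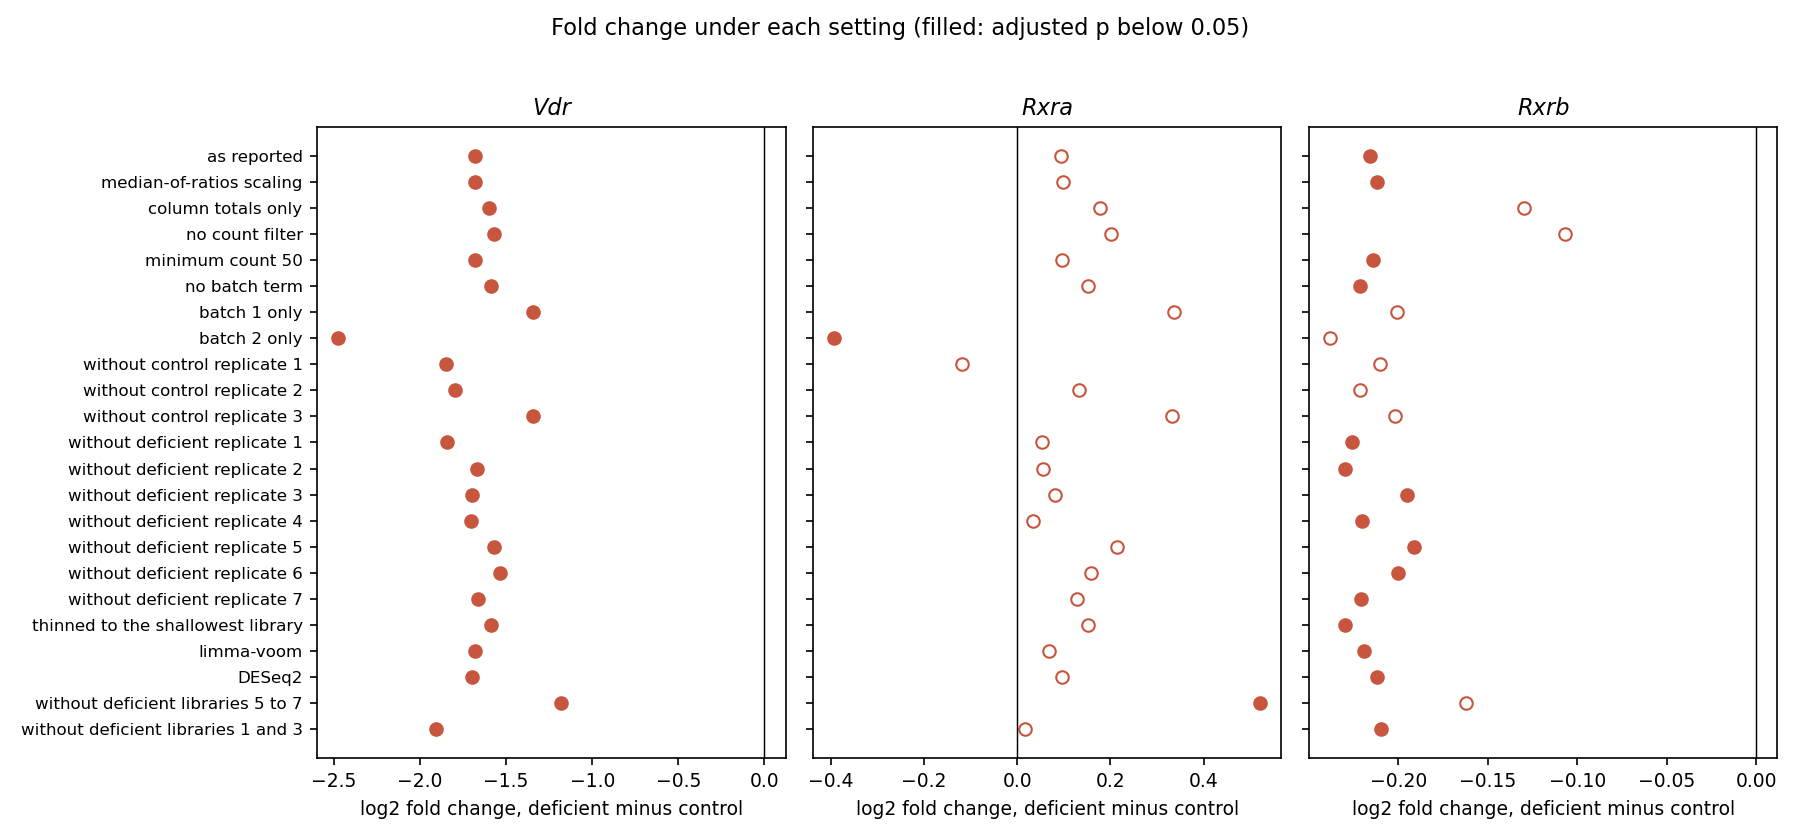
Log2 fold change (horizontal axis, deficient minus control) of Vdr, Rxra and Rxrb under each setting named on the vertical axis, filled where the adjusted p was below 0.05. The fill for batch 2 alone rests on 1 control library and is not read as a test. Vdr stays between -2.47 and -1.18, Rxra lies on both sides of 0 from -0.39 to 0.52, and Rxrb keeps its sign but passes in only some settings.

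The 2 enzymes that act on the hormone itself were at or near the limit of detection, and neither passed the filter on low counts. Cyp27b1 (ENSMUSG00000006724, chr10:127048250-127053006, plus strand) had 2 counts in each control library and 6, 6, 2, 8, 4, 10 and 3 counts in deficient libraries 1 to 7. In CPM the control libraries ranged from 0.309 to 0.345 and the deficient libraries from 0.285 to 0.744, so the groups overlapped. The pooled level was 1.5 times higher in the deficient group, with a 95% counting interval of 0.629 to 4.32 that covers counting error only, and the difference between library values did not pass (two-sided exact permutation p = 0.183). Fitted without the count filter, its log2 difference was 0.58 (edgeR adjusted p = 0.661). Cyp24a1 (ENSMUSG00000038567, chr2:170482708-170497145, minus strand), the calcitriol-degrading hydroxylase, had 0 counts in all 10 libraries, out of 98891840 counts in total. At 3 counts this allows a level of up to 0.0303 CPM over all libraries, and of up to 0.223 to 0.517 CPM in single libraries.

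Of 12 further genes of vitamin D synthesis, transport and metabolism, 7 had enough counts to be tested, of which 1 was higher, 3 were lower and 3 did not pass. The share passing, 57.1%, was near the 58% of all genes tested. Cyp2r1 and Cyp27a1, which make the precursor, were among the 5 not tested, with Gc, Lrp2 and Cyp3a11. Without deficient libraries 5 to 7, 0 were higher and 2 were lower by the same edgeR test. The median log2 difference was -0.18, against 0.02 over all genes. Dhcr7, which converts the vitamin D precursor sterol of skin into cholesterol, was at 7.43 to 11.2 CPM in control and 1.42 to 3.99 CPM in deficient libraries. It fell by 1.66 (SE 0.248, edgeR adjusted p = 3.84e-05), with no overlap. Fdxr, the reductase that feeds electrons to mitochondrial cytochromes including Cyp27b1 and Cyp24a1, went from 46.6 ± 2.38 CPM (SD, n = 3) to 27.3 ± 1.98 CPM (SD, n = 7). Its difference of -0.86 (SE 0.0829) passed at an edgeR adjusted p of 4.55e-07. Por, the reductase of microsomal cytochromes, fell by 0.41 (edgeR adjusted p = 0.0221) but lost this call in 7 of 22 settings. Sult2b1, a sulfotransferase of sterols, rose by 1.51 (edgeR adjusted p = 0.0193) from only 0.436 ± 0.111 CPM (SD, n = 3) to 1.30 ± 0.473 CPM (SD, n = 7). That call was lost in 6 of 20 settings, with an edgeR adjusted p of 0.122 without deficient libraries 5 to 7.

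Coactivators diverged by family member. Ncoa3 (ENSMUSG00000027678, chr2:165992636-166073242, plus strand), a steroid receptor coactivator that brings acetyltransferases to bound receptors, had 171, 185 and 193 CPM in control libraries. Deficient libraries ranged from 63.8 to 83.5 CPM with a median of 74.6 CPM, all below the control libraries. The means were 183 ± 11 CPM (SD, n = 3) and 74.0 ± 8.29 CPM (SD, n = 7), a 2.47-fold lower level. The fall of 1.38 on the log2 scale (SE 0.0781, 95% interval -1.55 to -1.22, edgeR adjusted p = 1.45e-09) was larger than the spread between libraries. Over all 22 alternative settings the difference lay between -1.48 and -1.28. The Sulf2 gene on the opposite strand overlaps 1.95% of its exon bases.

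Ncoa2 (ENSMUSG00000005886, chr1:13139105-13374083, minus strand), a second member of that family, had 133, 135 and 148 CPM in control libraries and 102, 84.9, 99.4, 95.9, 75.9, 75.5 and 84.9 CPM in deficient libraries 1 to 7. Every deficient library lay below the control libraries. The means were 139 ± 8.34 CPM (SD, n = 3) and 88.4 ± 10.9 CPM (SD, n = 7), and Ncoa2 fell by 0.74 (SE 0.0945, 95% interval -0.94 to -0.54, edgeR adjusted p = 1.04e-05). The difference was -0.58 without deficient libraries 5 to 7 and -0.95 in batch 2 alone. Ncoa1, the third member, is named here outside the rule and after its values were seen. It was at 20.5 ± 3.18 CPM (SD, n = 3) and 22.6 ± 1.92 CPM (SD, n = 7), with a difference of 0.06 (95% interval -0.19 to 0.31, edgeR adjusted p = 0.698). Per kilobase of exon, Ncoa3 stood at 9.91 ± 1.97 times Ncoa1 in control libraries (SD, n = 3) and at 3.56 ± 0.329 times in deficient libraries (SD, n = 7). Ncoa2 stood at 0.382 ± 0.0141 times Ncoa3 in control libraries and at 0.613 ± 0.125 times in deficient libraries, where libraries 1 to 4 were at 0.671 to 0.749 and libraries 5 to 7 at 0.459 to 0.524.

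Snw1 (ENSMUSG00000021039, chr12:87449075-87472274, minus strand), a protein of the spliceosome that also binds the receptor as a coactivator, had 165, 152 and 161 CPM in control libraries. Deficient libraries ranged from 142 to 179 CPM with a median of 172 CPM, so the groups overlapped. Its log2 difference of -0.01 (SE 0.0682, 95% interval -0.15 to 0.14) did not pass (edgeR adjusted p = 0.940), and its sign changed in 7 of 22 settings. Of its exon bases, 44.2% overlap Slirp on the opposite strand. No source used here gives the strand setting of the counting, so reads of the 2 genes may not have been separated, or may have been dropped. Slirp, an RNA-binding protein of mitochondria, rose by 0.43 (edgeR adjusted p = 0.000107).

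Among 18 other subunits and enzymes of coactivator complexes, all of which were tested, 2 were higher, 6 were lower and 10 did not pass, with a median of -0.13. The share passing was 44.4%, against 58% of all genes. Kat2b, a histone acetyltransferase, fell by 1.03 (SE 0.0686, edgeR adjusted p = 8.51e-09), from 102 ± 0.815 CPM (SD, n = 3) to 53.4 ± 5.06 CPM (SD, n = 7). Med12, of the kinase module of the Mediator complex, fell by 0.60 (edgeR adjusted p = 0.000367), and Baz1b, of a chromatin remodelling complex linked to the receptor, by 0.41 (edgeR adjusted p = 1.98e-05). Ep300, another histone acetyltransferase, fell by 0.33 (edgeR adjusted p = 0.00359). That call was lost in 2 of 22 settings, among them the fit without the count filter. Its groups overlapped, at 42.6 to 46.4 CPM in control and 34.6 to 42.8 CPM in deficient libraries. In the other direction, Med1, the Mediator subunit that contacts ligand-bound receptors, rose by 0.41 (edgeR adjusted p = 7.30e-05), from 54.7 ± 0.485 CPM (SD, n = 3) to 77.3 ± 4.78 CPM (SD, n = 7). Prmt1, an arginine methyltransferase of histones and coactivators, rose by 0.85 (SE 0.109, edgeR adjusted p = 8.58e-06), from 31.7 ± 2.17 CPM to 60.7 ± 7.31 CPM.

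The corepressor scaffold Ncor1 was lower with little spread. Ncor1 (ENSMUSG00000018501, chr11:62316426-62458541, minus strand) holds histone deacetylases on receptors that carry no ligand. It had 331, 346 and 327 CPM in control libraries and 213 to 247 CPM, with a median of 226 CPM, in deficient libraries, and the groups did not overlap. The means were 335 ± 9.98 CPM (SD, n = 3) and 228 ± 11 CPM (SD, n = 7). Ncor1 fell by 0.64 (SE 0.0592, 95% interval -0.77 to -0.52, edgeR adjusted p = 2.74e-07), and over all 22 alternative settings the difference lay between -0.67 and -0.53. Unlike Vdr and Rxra, its level in deficient libraries 5 to 7 (221 to 236 CPM) lay inside the range of deficient libraries 1 to 4. Pigl and Ttc19 overlap 0.648% of its exon bases.

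Of 12 other members of corepressor complexes, all tested, 3 were higher, 5 were lower and 4 did not pass, with a median of -0.12 and a share passing of 66.7%, against 58% of all genes. Gps2, a core subunit of the complex built on Ncor1, fell by 0.73 (edgeR adjusted p = 0.000278), whereas Hdac3, its deacetylase, rose by 0.46 (edgeR adjusted p = 3.87e-05), from 44.6 ± 0.628 CPM (SD, n = 3) to 65.3 ± 3.84 CPM (SD, n = 7). Ncor1 and Gps2 on one side and the deacetylase of their complex on the other thus moved in opposite directions. Cops2, a signalosome subunit that also acts as a nuclear receptor corepressor, fell by 1.01 (SE 0.0748, edgeR adjusted p = 2.52e-08), from 274 ± 17.6 CPM to 144 ± 14 CPM. Brd9, of a chromatin remodelling complex, fell by 0.62 (edgeR adjusted p = 7.31e-07). Hdac1 rose by 0.93 (SE 0.0815, edgeR adjusted p = 1.66e-07), from 36.0 ± 3.45 CPM to 72.4 ± 3.59 CPM, and Sin3b, a scaffold that carries it, rose by 0.52 (edgeR adjusted p = 5.23e-06).

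**Figure D3:**
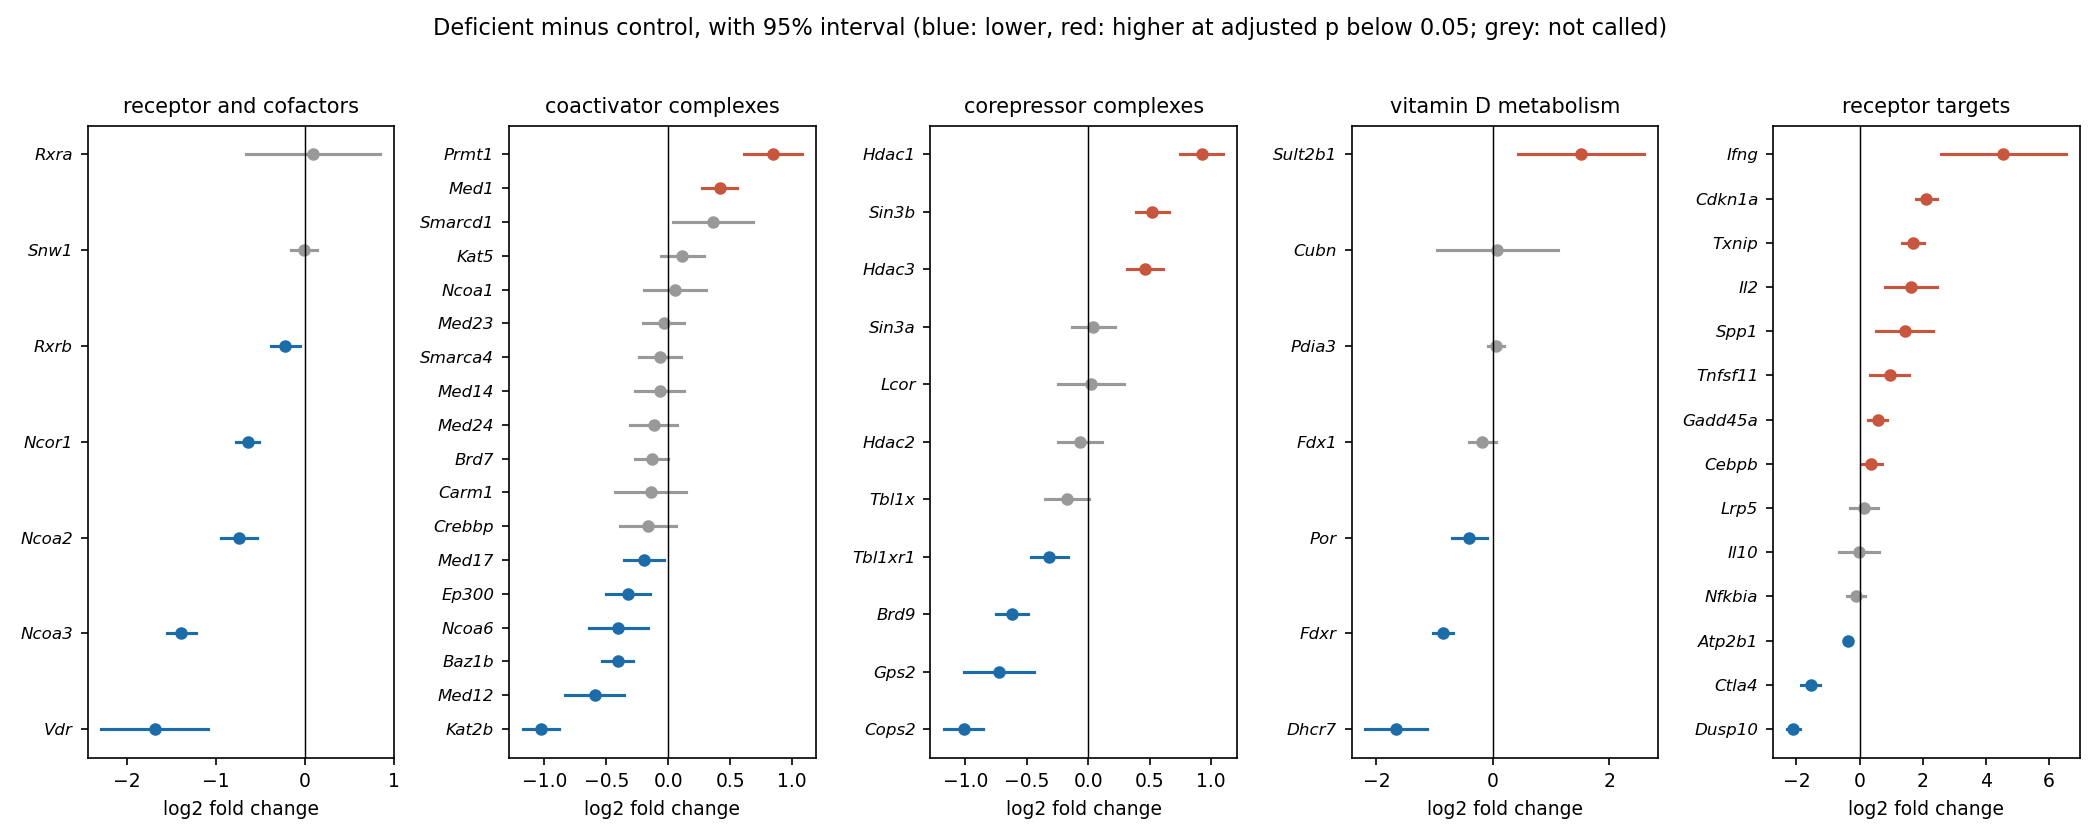
Log2 fold change (horizontal axis, deficient minus control) with its 95% interval for the 7 tested genes chosen by name and the tested genes of 4 related lists (1 corepressor gene is not drawn), coloured blue where lower, red where higher and grey where not passing. Vdr and Ncoa3 lie farthest to the left among the chosen genes, and the coactivator and corepressor lists hold genes on both sides of 0.

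Genes known as targets of the receptor moved both ways, and the plot of fold changes shows the widest span in this list. Of 24 such genes, 14 were tested, 8 were higher, 3 were lower and 3 did not pass, with a median of 0.47. The share passing was 78.6%, against 58% of all genes tested. Cdkn1a, an inhibitor of the cell cycle, had 11.6 to 17.6 CPM in control and 53.9 to 80.1 CPM in deficient libraries and rose by 2.11 (SE 0.155, edgeR adjusted p = 1.51e-07). Txnip, an inhibitor of thioredoxin, rose by 1.68 (edgeR adjusted p = 7.15e-06), and Gadd45a, a stress gene, by 0.57 (edgeR adjusted p = 0.00245). These 3 genes are known to be induced by calcitriol in other cells. Ifng, a cytokine that calcitriol is known to lower in T cells, rose by 4.55 (SE 0.840, edgeR adjusted p = 0.00245), from 4.48 ± 2.77 CPM (SD, n = 3) to 106 ± 69.5 CPM (SD, n = 7). CD8 T and natural killer cells also make Ifng. The sum of their markers, though not each marker, was higher in the same libraries, and its part was not tested. Dusp10, a phosphatase of stress kinases induced by calcitriol in other cells, went from 57.9 to 64.0 CPM in control to 12.1 to 18.6 CPM in deficient libraries and fell by 2.10 (SE 0.0954, edgeR adjusted p = 1.31e-10). Ctla4, an inhibitory receptor of T cells, fell by 1.55 (SE 0.132, edgeR adjusted p = 3.71e-06), from 456 ± 23.0 CPM to 167 ± 31.4 CPM. Atp2b1, a calcium pump of the plasma membrane, fell by 0.36 (edgeR adjusted p = 0.000138). Without deficient libraries 5 to 7 the same list held 8 higher and 3 lower genes.

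Ranked per kilobase of annotated exon, the coregulators and partners stood above the receptor in both diets. In control libraries Ncor1 was at 26.1 ± 0.779 CPM per kb (SD, n = 3), followed by Snw1 at 24.2 ± 1.07 and Ncoa3 at 23.2 ± 1.40, and the last 2 overlapped. Next came Rxrb at 11.1 ± 0.706, Ncoa2 at 8.85 ± 0.533, Rxra at 6.40 ± 1.27 and Vdr at 1.87 ± 0.116 CPM per kb, each separate from its neighbours. In deficient libraries Snw1 led at 25.6 ± 1.87 CPM per kb (SD, n = 7), above Ncor1 at 17.8 ± 0.858 in every library. The Snw1 level may be too high or too low, because reads over the exons it shares with Slirp may have been miscounted or dropped. Its rank in both diets is therefore uncertain. Rxrb at 10.1 ± 0.624, Ncoa3 at 9.38 ± 1.05, Rxra at 7.55 ± 2.63 and Ncoa2 at 5.65 ± 0.697 CPM per kb each overlapped their neighbour in this order. Vdr was at 0.660 ± 0.292 CPM per kb, below these in every library. Cyp27b1 was at 0.126 ± 0.00701 and 0.180 ± 0.0654 CPM per kb, and Cyp24a1 was at 0 in both diets. Ncoa3 thus stood in the top group in control libraries and beside the retinoid X receptors in deficient libraries.

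**Figure D4:**
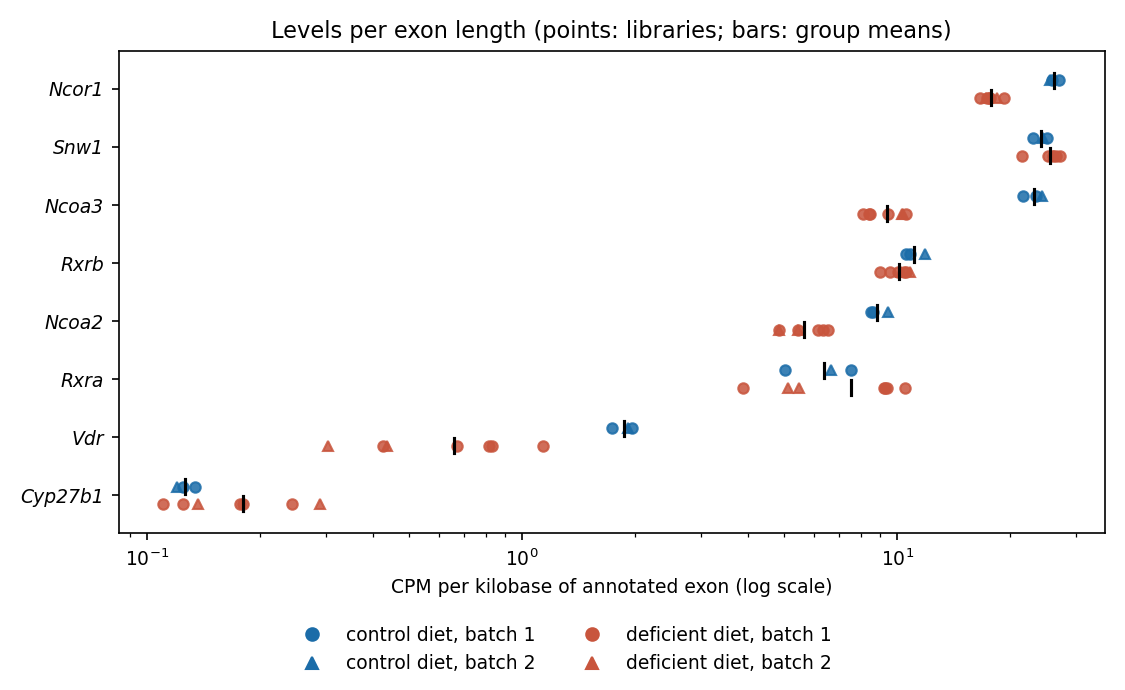
CPM per kilobase of annotated exon (horizontal axis, log scale) of 8 genes in each library, with bars at the group means; Cyp24a1 is left out because it had 0 counts. Ncor1, Snw1 and Ncoa3 average 23.2 to 26.1 CPM per kb in control libraries, and Vdr lies lowest of the tested genes in both diets. The Snw1 level is uncertain because of its overlap with Slirp.

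The genes whose profile over the 10 libraries was most like that of Vdr were found by the root mean square difference of centred log2 CPM among 12541 genes with a mean of at least 1 CPM, for which the median distance was 0.935. Gas2l3, which links actin and microtubules, was closest at 0.113, with 41.6 to 45.1 CPM in control and 8.34 to 22.2 CPM in deficient libraries. Pif1, a DNA helicase, was at 0.183 and Lonrf3, a ring finger protein, at 0.206. Hist1h2bl, a replication-dependent histone, was at 0.191, and its counts are uncertain because histone genes have near-identical copies. The gene ID ENSMUSG00000096807, to which no symbol was matched, was at 0.179. All 5 had their lowest levels in deficient libraries 5 to 7, as the choice by likeness to Vdr over the same libraries would favour.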

How the data were processed

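Raw counts of reads for each Ensembl gene ID in 10 libraries were deposited by the authors. Per the submitters' processing notes, the tools were STAR 2.7.10a and HTSeq 0.13.5, and the build was GRCm38. Libraries were made with a stranded total RNA kit with globin removal, per the labels' protocols. For the strand setting and the annotation release, nothing is given in the sources used here. IDs were matched to GENCODE M21 (GRCm38), 49412 of 49671, and the 259 others held 0.0226% of counts. Groups and batches follow the labels, and replicates were numbered by accession, which pairs no libraries. Pairs of libraries of a group differed by more than sampling noise (chi-square per gene 2.66 to 44.7).

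In R 4.3.3, edgeR 4.0.16 kept 13699 genes (filterByExpr, minimum count 10), scaled by TMM and fitted diet and batch by robust quasi-likelihood, with Benjamini-Hochberg adjustment over all genes tested and a threshold of 0.05. Log2 differences are deficient minus control. CPM use column totals, and lengths are unions of annotated exons. Single values were compared by two-sided exact permutation over 120 splits. The steps were tested on simulated data.

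The 9 genes and the lists of related genes were chosen with earlier results of these data known. Besides the 9 genes, those named are up to 4 of smallest adjusted p per list and direction, and the 5 closest to Vdr in profile. Ncoa1, Slirp and the cell type markers named were added after their values were seen, and 1 gene of the corepressor list is counted but not reported here. Alternatives were other scalings, filters and tools (DESeq2 1.42.0, limma 3.58.1), no batch term, single batches, thinned counts and single libraries left out. Fits without deficient libraries 5 to 7 or 1 and 3 were chosen after seeing the data. Figures were drawn with matplotlib 3.10.9.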

Additional observations from a re-analysis of the deposited data

Results flagged for a closer look

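In 38 genes of the chosen set and the related lists, the highest and lowest deficient library was compared with its nearest neighbour relative to the range of the 7 libraries. In 3 genes a single library stood apart beyond Dixon's 95% critical value for 7 libraries, where chance gives about 1 in 20. Snw1 was at 142 CPM in deficient library 1, the lowest of its group, with a gap of 0.674 of the range. Prmt1 was at 75.9 CPM in the same library, the highest of its group, with a gap of 0.609. Kat2b was at 64.0 CPM in deficient library 4, the highest of its group, with a gap of 0.606. Without deficient library 1 the log2 difference of Snw1 was 0.02 and did not pass.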

How the results depend on the processing

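Over 22 alternative settings Vdr, Ncoa2, Ncoa3 and Ncor1 kept their direction. Leaving aside batch 2 alone, which has 1 control library, they also stayed past the threshold. The counts of higher (3417 to 4793) and lower genes (3262 to 3988) then stayed within 1.5 times the reported ones. Where settings or comparisons are counted in this report, batch 2 alone is among them, and its calls are not read as tests. Leaving out single libraries gave 3432 to 4107 higher and 3341 to 3988 lower genes. Scaling by column totals moved the median of all genes to 0.10 and the higher share of calls from 50.7% to 58.1%, and dropping the count filter moved them to 0.19 and 59.0%. Rxrb no longer passed with column totals (-0.13), without the count filter (-0.11), in batch 1 alone (-0.20) and without deficient libraries 5 to 7 (-0.16). In batch 2 alone, which has 1 control library, its difference was -0.24. Without single libraries it ranged from -0.23 to -0.19. Rxra was -0.39 in batch 2, which has 1 control library, and 0.52 without deficient libraries 5 to 7, and ranged from -0.12 (without control library 1) to 0.33 without single libraries. Snw1, which never passed, was 0.081 with column totals, 0.10 without the count filter, 0.035 in batch 2 alone and 0.044 without deficient libraries 1 and 3, and ranged from -0.045 to 0.056 without single libraries. The cause of these changes was not tested. For the 29 other named genes, 621 of 636 comparisons kept direction and call, 15 lost the call and 0 reversed. No paired analysis was possible because the labels give no replicate numbers. The shallow control libraries limit the precision for Cyp27b1, Cyp24a1 and Sult2b1.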
